A study of Mus musculus with 6 samples.

Results

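Cyclins, cyclin-dependent kinases (CDKs), their inhibitors and the E2F transcription factors were examined in 6 RNA-seq libraries labelled as embryo, 3 wild type and 3 knockout for lnc956, a long noncoding RNA gene. The libraries came from C57BL/6N mice at E12.5, a mid-gestation stage, and were made from total RNA. Members were taken by gene symbol: cyclins A, B, D, E and F with a number in the symbol, CDKs with a number, Cdkn genes, numbered E2f genes, Tfdp genes, Rbl genes and Rb1, with cyclin G left out. The table of 7101 genes held 28 of them, out of 65 annotated mouse symbols that the same rule takes in GENCODE M21, of which 60 are protein coding. The others, among them Ccne2, Cdk6, Cdkn1b, Cdkn1c, E2f7, Rb1 and Rbl1, were not analysed here. The labels do not say how the knockout was made or whether each library came from its own embryo, so a p-value here covers the spread between these libraries and nothing wider.

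Cyclins are the regulatory subunits that switch CDKs on, and each class acts at its own stage of the cell cycle. D-type cyclins with Cdk4 and Cdk6 inactivate the retinoblastoma family of pocket proteins, which frees E2F factors to switch on genes for DNA replication. Cyclin E with Cdk2 starts S phase, cyclin A acts through S phase and G2, and cyclin B with Cdk1 drives mitosis. Cells that lose Cdk1 activity but keep cyclin E and Cdk2 can copy their DNA repeatedly without dividing. Trophoblast giant cells of the mouse placenta and decidual cells of the uterus are known examples of this endocycle, and both become polyploid.

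Levels are in FPKM, a unit that corrects fragment numbers for transcript length and for the mapped fragments of each library, so levels of different genes can be set side by side. Only 10 of the 7101 genes had group means within a log2 ratio of 0.5, so its genes look picked for differing between these same groups. With limma on log2(FPKM + 1), 96.4% of the 6487 genes tested had an adjusted p under 0.05, 47.2% higher and 49.2% lower in knockout. A count of members past the threshold is therefore set by that selection, and nothing is read from it. Tissue markers also separated the groups, and their part in the results was not tested. The summed FPKM of the 8 uterine natural killer cell markers in the table (of 10 listed, all 8 higher) was 3.48 to 6.32 in wild type and 7532 to 18896 in knockout. That of 5 trophoblast giant cell markers (of 8 listed, all 5 higher) was 4.41 to 5.82 and 7200.4 to 29403, and that of 4 spongiotrophoblast and glycogen cell markers (of 7 listed, all 4 higher) was 2.23 to 3.42 and 3854 to 7096. That of 10 decidual stroma markers (9 higher, Igfbp1 not past the threshold) was 71.7 to 83.5 and 7939 to 9532. The 7 neuron markers in the table (of 10 listed, all 7 lower) summed to 739 to 781 in wild type and 5.90 to 21.1 in knockout, with Nefl listed at 0 in knockout replicate 1 and Elavl3 at 0 in knockout replicate 2. The 5 neural progenitor markers (of 8 listed, all 5 lower) summed to 346 to 424 and 1.91 to 3.06, and the 7 skeletal muscle and heart markers (of 9 listed, all 7 lower) to 468 to 625 and 11.1 to 11.6. The 8 erythroid markers (of 9 listed, all 8 lower) summed to 27895 to 42448 and 2170 to 4811, and the 3 fetal liver markers (of 6 listed, all 3 lower) to 201 to 355 and 0.393 to 93.2. Of the liver markers, Apoa1 (limma adjusted p = 0.045) overlapped between the groups, at 72.8 in knockout replicate 3 and 49.97 to 91.1 in wild type. The 3 labyrinth trophoblast markers in the table (of 7 listed, 1 tested and higher) summed to 10.2 to 13.7 in wild type and 25.7 to 71.2 in knockout, with Gcm1 at 0 in knockout replicates 1 and 2. Nerve and muscle transcripts were low but not all near 0 in the libraries labelled as knockout embryo, where Tubb3 was at 17.8, 0.902 and 8.99 FPKM and Tnnt2 at 6.39, 6.23 and 3.66. In bulk RNA, fewer cells of a type and less RNA per cell cannot be told apart.

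Of the 27 members tested, 21 were lower and 6 were higher in knockout, and in all 28 the wild-type and knockout values did not overlap, as in 95.6% of all genes in the table. The median log2 change of the tested members was −2.06, beside 0.38 for all genes tested. The 6 higher members were Cdkn1a, Cdkn2b, E2f8, Rbl2, Cdk18 and Cdk2ap2, none of which is a cyclin. All 7 cyclins among the members and the CDK genes Cdk1, Cdk2 and Cdk4 were lower. Cdk3-ps, a polymorphic pseudogene, was under the level filter of 1 FPKM in at least 3 libraries and was not tested. Cdkn2b passed that filter through the knockout libraries alone. Ccnd2 and E2f2 reached 1 FPKM in only 1 knockout library and Cdkn3 in 2, so they met the filter by way of wild type, where they were high. No support is drawn from the p-values of these genes.

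**Figure D1:**
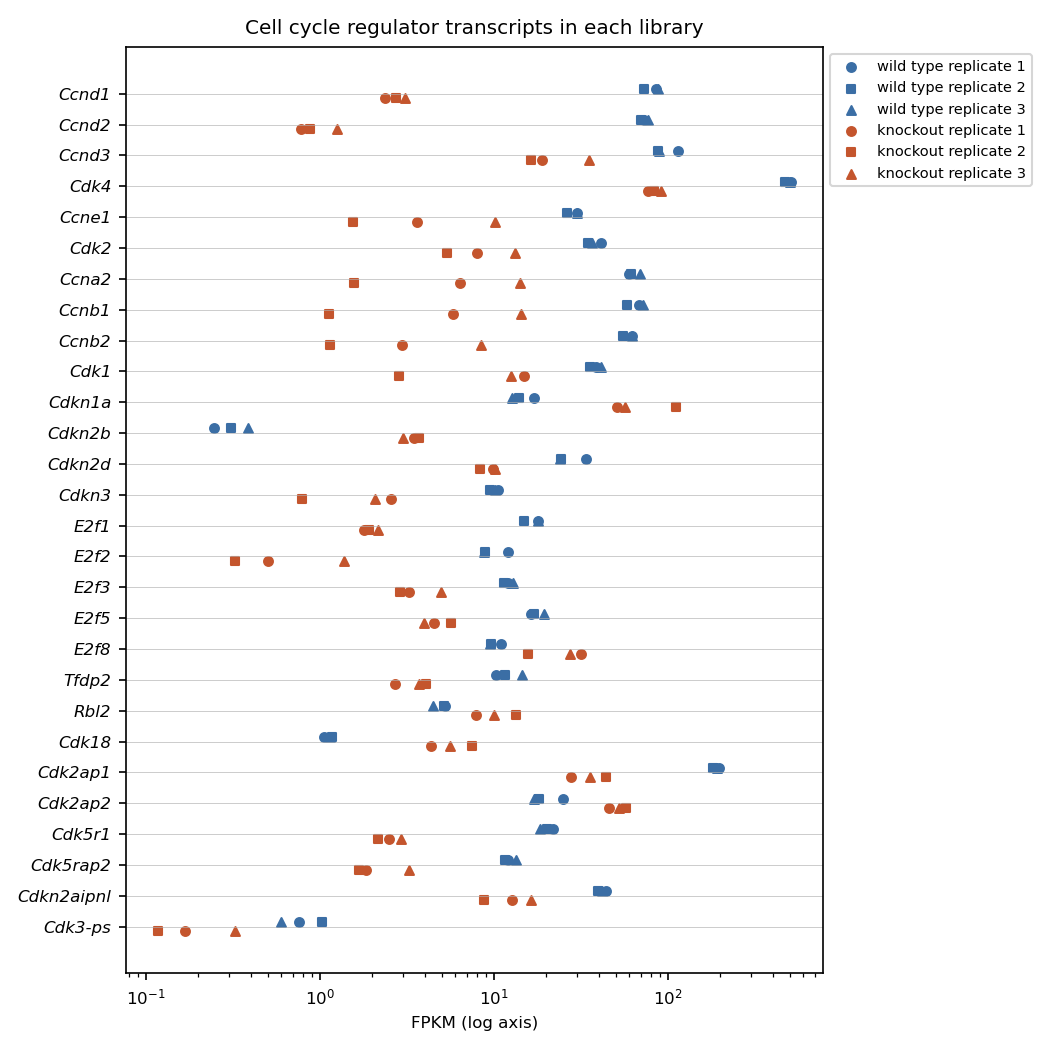
FPKM of each of the 28 members in each library on a log axis, with blue symbols for wild type and orange for knockout and the symbol shape for the replicate number. The groups do not overlap for any member, and orange lies to the right of blue in 6 of them, Cdkn1a, Cdkn2b, E2f8, Rbl2, Cdk18 and Cdk2ap2.

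**Figure D2:**
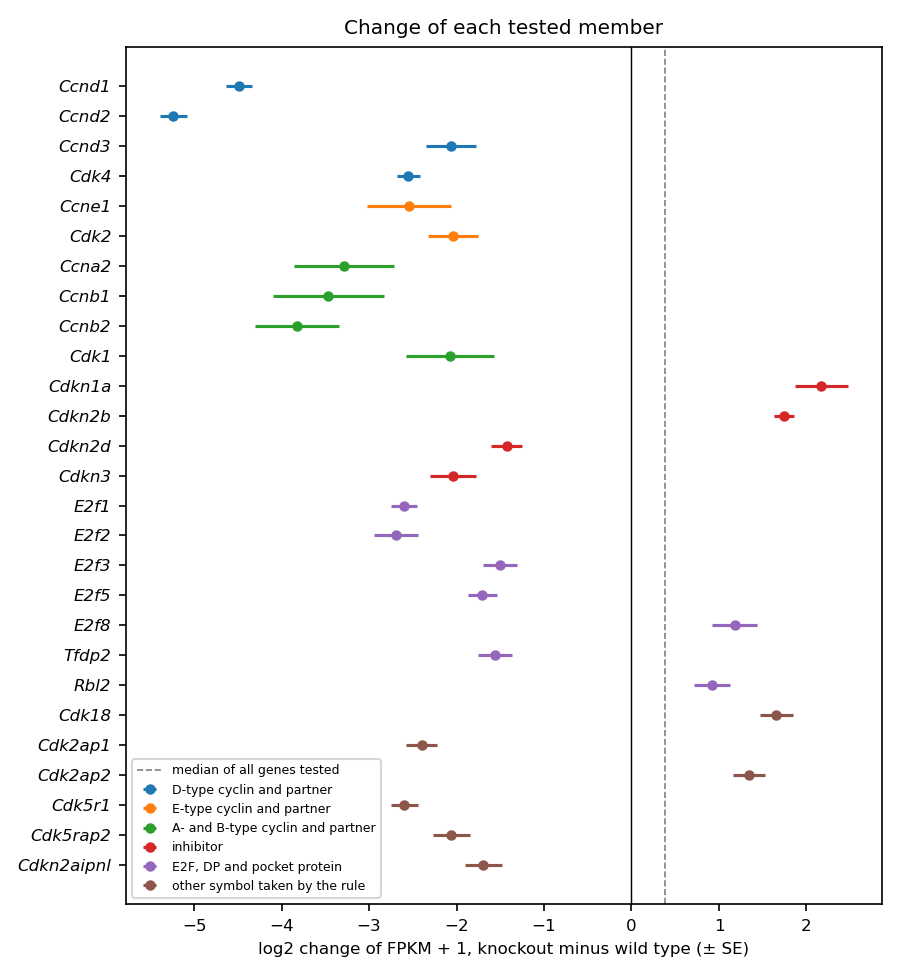
Log2 change of FPKM + 1, knockout minus wild type, with its standard error, for the 27 members tested, coloured by role, with a dashed line at the median of all genes tested (0.38). The D-type cyclin genes Ccnd2 and Ccnd1 lie farthest to the left, at −5.24 and −4.48.

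The D-type cyclins, which link growth signals to the cell cycle, fell unequally. Ccnd1 was at 85.7, 73.2 and 88.0 FPKM in the wild-type libraries and at 2.36, 2.73 and 3.07 in the knockout libraries, in the order of replicates 1 to 3 as throughout (a log2 change of −4.48, SE 0.15, limma adjusted p = 5.47e-07). Ccnd2 was at 72.4, 69.8 and 76.5 FPKM in wild type and at 0.781, 0.873 and 1.26 in knockout (−5.24, SE 0.15, limma adjusted p = 4.44e-07). Ccnd3 was at 114, 87.3 and 89.0 FPKM in wild type and kept 19.0, 16.3 and 35.0 in knockout (−2.06, SE 0.28, limma adjusted p = 0.000236). The knockout mean was 3.31% of the wild-type mean for Ccnd1, 1.33% for Ccnd2 and 24.2% for Ccnd3. Cyclin D3 is the D-type cyclin that has been linked to polyploidy of decidual cells in the mouse.

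Within a library, shares of the summed FPKM of these 3 genes do not depend on how the library is scaled by a single factor. Ccnd3 held 41.8%, 37.9% and 35.1% of the D-type sum in wild type and 85.8%, 81.9% and 89.0% in knockout. Ccnd1 went from 31.5% to 34.7% in wild type to between 7.8% and 13.7% in knockout, and Ccnd2 from between 26.6% and 30.3% to between 3.2% and 4.37%. The wild-type libraries thus carried the 3 D-type transcripts at similar levels, and the knockout libraries carried mostly Ccnd3. The sum itself was 252 ± 20.8 FPKM in wild type and 27.1 ± 10.6 in knockout (mean ± SD, n = 3 in each group). The shares are a description, and no test was made on them.

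**Figure D3:**
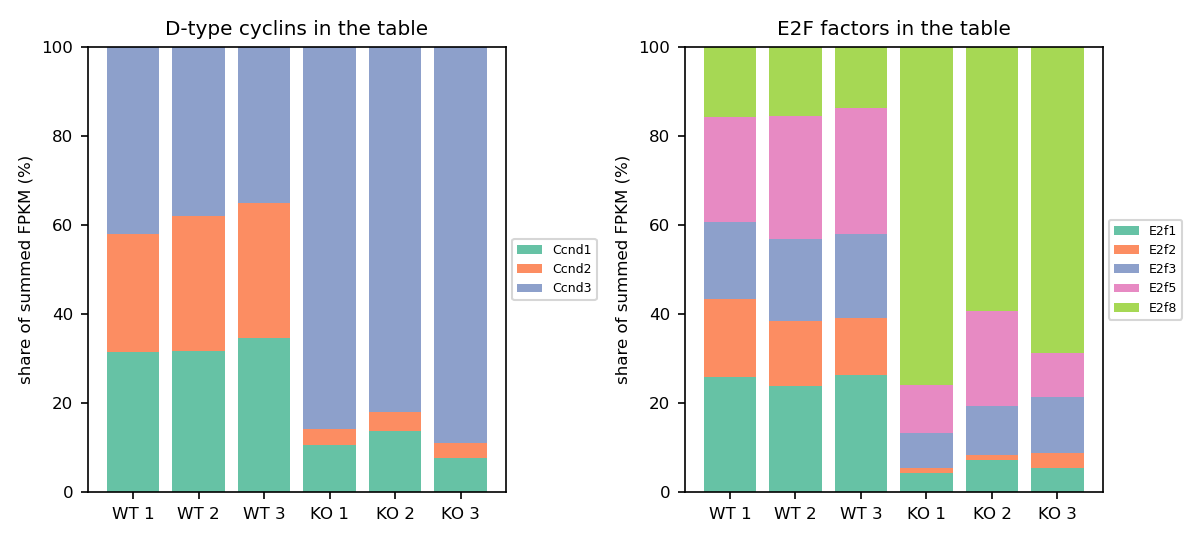
Stacked bars of each gene's share of the summed FPKM of the D-type cyclins (left) and of the E2F genes in the table (right), in each wild-type (WT) and knockout (KO) library. Ccnd3 fills 81.9% to 89.0% of the D-type bar and E2f8 59.4% to 75.9% of the E2F bar in knockout.

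Cdk4, the kinase partner of the D-type cyclins, was the most abundant member in each library but knockout replicate 2, where Cdkn1a was higher. It was at 513, 470 and 500.0 FPKM in wild type and at 76.6, 82.9 and 91.6 in knockout (log2 change −2.55, SE 0.13, limma adjusted p = 1.77e-06). Its knockout values were close together, the highest being 1.2 times the lowest. Relative to Ccnd3, Cdk4 stood at ratios of 4.51, 5.38 and 5.62 in wild type and 4.04, 5.07 and 2.62 in knockout, ranges that overlap. In GENCODE M21 on GRCm38, Ccnd1 lies on chromosome 7 at 144929931 to 144939925, Ccnd2 on chromosome 6 at 127125162 to 127152193, Ccnd3 on chromosome 17 at 47505051 to 47599691 and Cdk4 on chromosome 10 at 127063534 to 127067920. Exons of Cdk4 overlap those of Tspan31 on the opposite strand, exons of Ccnd3 overlap Bysl, and exons of Ccnd1 overlap LTO1, and the sources used here do not say whether reads were counted by strand. A processed pseudogene, Ccnd3-ps, may also share reads with Ccnd3.

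Ccne1 and Cdk2, which together open S phase and drive endocycles, fell in all knockout libraries but by unequal amounts. Ccne1 was at 29.99, 26.1 and 29.9 FPKM in wild type and at 3.602, 1.56 and 10.1 in knockout (log2 change −2.55, SE 0.48, limma adjusted p = 0.00138). Cdk2 was at 41.2, 34.9 and 36.8 FPKM in wild type and at 8.03, 5.37 and 13.2 in knockout (−2.04, SE 0.28, limma adjusted p = 0.000253). Both were lowest in knockout replicate 2 and highest in knockout replicate 3. The Ccne1 knockout mean was 17.7% of wild type, and 9.0% without knockout replicate 3.

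The cyclins of S phase, G2 and mitosis fell further than Cdk2 in each knockout library, and varied widely among those libraries. Ccna2, the cyclin A of dividing somatic cells, was at 59.9, 61.1 and 69.1 FPKM in wild type and at 6.35, 1.58 and 14.1 in knockout (log2 change −3.29, SE 0.57, limma adjusted p = 0.000862). Ccnb1, the main mitotic cyclin, was at 68.1, 58.2 and 71.9 FPKM in wild type and at 5.83, 1.13 and 14.2 in knockout (−3.46, SE 0.63, limma adjusted p = 0.00115). Ccnb2, its close relative, was at 62.3, 55.2 and 62.2 FPKM in wild type and at 2.96, 1.14 and 8.40 in knockout (−3.82, SE 0.48, limma adjusted p = 0.000149). Each of the 3 was lowest in knockout replicate 2 and highest in replicate 3, and the highest knockout value was 8.93, 12.6 and 7.39 times the lowest for Ccna2, Ccnb1 and Ccnb2. Their knockout means were 11.6%, 10.7% and 6.95% of wild type, and 6.25%, 5.27% and 3.42% without knockout replicate 3. Processed pseudogenes of Ccnb1 and Ccnb2 are annotated and may share reads with them, and exons of Ccna2 overlap those of Exosc9 on the opposite strand.

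Cdk1, the kinase that these cyclins activate, did not follow them closely. It was at 38.7, 35.8 and 41.5 FPKM in wild type and at 14.9, 2.86 and 12.6 in knockout (log2 change −2.07, SE 0.50, limma adjusted p = 0.00485), the largest adjusted p of any member. Knockout replicate 1 therefore kept 38.5% of the wild-type mean of Cdk1, beside 8.82% for Ccnb1 and 4.93% for Ccnb2 in the same library. In knockout replicate 2 Cdk1 was at 7.41% of wild type, and Cdk2 at 14.3%. The ratio of Cdk2 to Cdk1 was 1.06, 0.974 and 0.886 in wild type and 0.539, 1.87 and 1.05 in knockout, so it moved in no common direction. The ratio of Ccne1 to Ccnb1 was 0.44, 0.449 and 0.417 in wild type and 0.618, 1.38 and 0.71 in knockout, above wild type in each knockout library. The value of 1.38 rests on 1.56 FPKM of Ccne1 and 1.13 of Ccnb1, both near the level filter of 1 FPKM. Trophoblast giant cell markers summed to 29403, 8711 and 7200.4 FPKM in knockout replicates 1 to 3. The excess in replicate 1 lay mostly in Prl2c2 (14210, 2135 and 1579) and Prl3d1 (8089, 224.5 and 337.9). Hand1 was also highest there (193, 89.2 and 112), while Prl3b1 (6901, 6251 and 5160) and Lepr (10.7, 11.5 and 11.2) were closer to even. Whether these markers bear on the higher Cdk1 of replicate 1 was not tested. Cdk1 lies on chromosome 10 at 69335146 to 69352938, Ccna2 on chromosome 3 at 36564865 to 36572150, Ccnb1 on chromosome 13 at 100778650 to 100786570 and Ccnb2 on chromosome 9 at 70407692 to 70421547 (GRCm38).

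Promoters of cell cycle genes are known to carry E2F sites, CHR elements (cell cycle genes homology regions, bound by the MuvB complex) and CCAAT boxes, and several members fell together, so the stretches before their start sites were read. RefSeq windows of 300 bases on GRCm38.p6, 250 before the start site and 50 from it, were matched for 22 of the 28 members. The words searched on both strands were TTTCCCGC, TTTCGCGC, TTTGCCGC and TTTGGCGC for the E2F site, TTTGAA and TTCGAA for the CHR element, and CCAAT for the CCAAT box. Shown are Cdk1 and Ccnb2, which hold paired CHR elements and CCAAT boxes, E2f3, a member that fell, and E2f8, a member that rose. The E2f3 window shown holds all 3 kinds of word, while another E2f3 window (chr13:29984342-29984641) holds none of them. Each stretch printed runs 5′ to 3′ from 250 bases before the start site to 30 bases from it, with matched words in capitals, on whichever strand they read.
Cdk1, chr10:69352883-69353162, minus strand: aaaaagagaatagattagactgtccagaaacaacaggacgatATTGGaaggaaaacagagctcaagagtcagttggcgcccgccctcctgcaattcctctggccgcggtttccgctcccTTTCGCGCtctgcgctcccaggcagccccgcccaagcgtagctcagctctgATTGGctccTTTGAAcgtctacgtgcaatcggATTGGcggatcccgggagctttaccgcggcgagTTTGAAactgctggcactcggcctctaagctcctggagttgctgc
Ccnb2, chr9:70421525-70421804, minus strand: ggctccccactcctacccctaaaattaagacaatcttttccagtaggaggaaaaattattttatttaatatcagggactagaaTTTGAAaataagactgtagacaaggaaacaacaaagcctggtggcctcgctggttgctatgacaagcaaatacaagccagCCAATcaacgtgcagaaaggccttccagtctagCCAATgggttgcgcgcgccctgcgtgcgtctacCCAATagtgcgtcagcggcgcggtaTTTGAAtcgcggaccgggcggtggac
E2f3, chr13:29986034-29986313, minus strand: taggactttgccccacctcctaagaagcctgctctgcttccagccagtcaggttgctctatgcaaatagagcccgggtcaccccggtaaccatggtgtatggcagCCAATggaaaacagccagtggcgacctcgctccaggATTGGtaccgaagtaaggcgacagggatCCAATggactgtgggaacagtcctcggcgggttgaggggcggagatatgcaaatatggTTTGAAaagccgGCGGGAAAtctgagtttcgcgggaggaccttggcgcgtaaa
E2f8, chr7:48881567-48881846, minus strand: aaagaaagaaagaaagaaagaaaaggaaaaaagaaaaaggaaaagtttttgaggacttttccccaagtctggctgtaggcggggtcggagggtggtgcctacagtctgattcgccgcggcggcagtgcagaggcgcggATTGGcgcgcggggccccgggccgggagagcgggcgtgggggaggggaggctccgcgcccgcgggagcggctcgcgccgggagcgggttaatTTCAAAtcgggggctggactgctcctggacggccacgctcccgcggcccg
In Cdk1 the words TTTGAA begin at positions −71 and −15 from the start site, each after an inverted CCAAT box, and TTTCGCGC begins at −131. In Ccnb2 the CCAAT boxes begin at −87, −54 and −21 and a TTTGAA at 5. No matched words overlap in these stretches.

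Of the 16 lower members with a window, 4 held an E2F word (Cdk1, Cdk2, E2f2 and E2f3), 25.0%, beside 2.6% of all 27025 genes with a window and 5.78% of the 2580 genes of the table that were lower in knockout. In every set a gene was counted if any of its windows held the word, and E2f2 and E2f3 each have another window without an E2F word. Of the 6 higher members, none held an E2F word, beside 3.14% of the 2736 genes of the table that were higher in knockout. None of 6 is close to that share, and no contrast between the directions is read from it. A CHR word was in 6 of the 16 lower members and 3 of the 6 higher ones (Cdkn2b, E2f8 and Rbl2), beside 21.7% of all genes. A CCAAT box was in 11 of the 16 and 3 of the 6, beside 41.1%. Among the lower and higher genes of the table, the shares were 18.1% and 16.2% for a CHR word and 45.3% and 39.7% for a CCAAT box. CHR words were thus found in members of both directions. Matches are letters in a window, and factor binding was not measured.

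Among the inhibitors, Cdkn1a and Cdkn2b rose while Cdkn2d and Cdkn3 fell. Cdkn1a encodes p21, a p53 target that blocks CDKs bound to cyclins E and A, and was at 17.1, 13.9 and 12.7 FPKM in wild type and at 50.8, 112 and 56.6 in knockout (log2 change 2.17, SE 0.30, limma adjusted p = 0.00025). It was highest in knockout replicate 2, the library with the lowest Ccna2, Ccnb1, Ccne1, Cdk1 and Cdk2. The ratio of Cdkn1a to Cdk2 was 0.415, 0.398 and 0.345 in wild type and 6.33, 20.8 and 4.28 in knockout. Summed uterine natural killer cell markers were also highest in knockout replicate 2, at 18896 FPKM against 7532 and 12284 in knockout replicates 1 and 3. So were summed decidual stroma markers, at 9532 FPKM against 8479 and 7939. The genes of these lists did not all peak there. Of the decidual list, Prl8a2 was highest in knockout replicate 1 (7136, 6609 and 6097) and Bmp2, Wnt4 and Igfbp1 in replicate 3. The other decidual genes, such as Dcn (621, 1563 and 897), were highest in replicate 2. Of the uterine natural killer list, Eomes alone was highest in replicate 1. The sums of the trophoblast lists were highest in other knockout libraries, and the part of none of these lists was tested.

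Cdkn2b encodes p15, an INK4 inhibitor that binds Cdk4 and Cdk6. It was at 0.245, 0.307 and 0.386 FPKM in wild type and at 3.47, 3.73 and 3.003 in knockout, and the ratio of means was 10.9. Since it reached the level filter in the knockout libraries alone, it had to differ to be tested, and its p-value is not given as support. Cdkn2d, which encodes the INK4 inhibitor p19, was at 33.8, 24.1 and 24.1 FPKM in wild type and at 9.92, 8.35 and 10.1 in knockout (−1.43, SE 0.18, limma adjusted p = 0.000139). Cdkn2d remained the more abundant of these 2 INK4 transcripts, but Cdkn2b went from 0.719% to 1.58% of their sum in wild type to between 23.0% and 30.9% in knockout. Cdkn3, a phosphatase that acts on CDKs and is most abundant in dividing cells, was at 10.6, 9.54 and 10.1 FPKM in wild type and at 2.56, 0.786 and 2.06 in knockout (−2.04, SE 0.26, limma adjusted p = 0.000164). Cdkn1a lies on chromosome 17 at 29090976 to 29100727, Cdkn2b on chromosome 4 at 89306299 to 89311039, Cdkn2d on chromosome 9 at 21288410 to 21291407 and Cdkn3 on chromosome 14 at 46760541 to 46771669 (GRCm38).

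The activator E2Fs fell and the atypical E2f8 rose. E2f1 was at 17.9, 14.8 and 18.03 FPKM in wild type and at 1.80, 1.90 and 2.15 in knockout (log2 change −2.60, SE 0.15, limma adjusted p = 3.08e-06). E2f2 was at 12.1, 8.91 and 8.82 FPKM in wild type and at 0.501, 0.326 and 1.37 in knockout (−2.69, SE 0.25, limma adjusted p = 2.91e-05). E2f3 was at 12.0, 11.4 and 12.9 FPKM in wild type and at 3.27, 2.88 and 4.95 in knockout (−1.50, SE 0.19, limma adjusted p = 0.000165). Of these 3 activators, which switch on S phase genes, E2f3 kept the most, 30.6% of its wild-type mean, beside 11.5% for E2f1 and 7.35% for E2f2, the last being 4.16% without knockout replicate 3. E2f5, a repressor E2F that works with pocket proteins, was at 16.3, 17.0 and 19.3 FPKM in wild type and at 4.497, 5.66 and 3.99 in knockout (−1.71, SE 0.17, limma adjusted p = 3.57e-05).

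E2f8 represses E2F target genes without a DP partner and, with E2f7, is needed for the mouse placenta and for endocycles of trophoblast giant cells. It was at 11.0, 9.66 and 9.48 FPKM in wild type and at 31.7, 15.7 and 27.3 in knockout (log2 change 1.18, SE 0.26, limma adjusted p = 0.00283). All 3 knockout values were above every wild-type value, and the lowest was that of knockout replicate 2. E2f8 held 15.8%, 15.6% and 13.8% of the summed FPKM of the 5 E2F genes in the table in wild type and 75.9%, 59.4% and 68.7% in knockout. The ratio of E2f8 to E2f1 was 0.611, 0.652 and 0.526 in wild type and 17.7, 8.26 and 12.7 in knockout. The promoter stretch of E2f8 printed above holds a CHR word that reads on the opposite strand and none of the E2F words searched.

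Tfdp2, a DP protein that pairs with E2Fs to bind DNA, was at 10.3, 11.6 and 14.6 FPKM in wild type and at 2.69, 4.05 and 3.69 in knockout (log2 change −1.56, SE 0.19, limma adjusted p = 0.000135). Rbl2, which encodes the pocket protein p130 of resting cells, was at 5.21, 5.17 and 4.44 FPKM in wild type and at 7.93, 13.4 and 9.94 in knockout (0.92, SE 0.20, limma adjusted p = 0.00314). Rbl2 had the smallest change of any tested member, and exons of Rbl2 overlap those of Aktip on the opposite strand. In GRCm38, E2f1 lies on chromosome 2 at 154559407 to 154569892, E2f2 on chromosome 4 at 136172394 to 136196057, E2f3 on chromosome 13 at 29906575 to 29986063, E2f8 on chromosome 7 at 48866429 to 48881596 and Rbl2 on chromosome 8 at 91070057 to 91123844.

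The rule also took 7 symbols that begin like a CDK or an inhibitor but do not name a core cell cycle kinase or inhibitor. Cdk18, a kinase of the PCTAIRE group, was at 1.06, 1.18 and 1.14 FPKM in wild type and at 4.36, 7.51 and 5.56 in knockout (log2 change 1.65, SE 0.19, limma adjusted p = 8.48e-05). The CDK2-associated proteins moved apart. Cdk2ap1 was at 196, 181 and 192 FPKM in wild type and at 27.7, 43.8 and 35.7 in knockout (−2.40, SE 0.18, limma adjusted p = 1.08e-05). Cdk2ap2 was at 24.8, 18.1 and 16.9 FPKM in wild type and at 45.6, 57.2 and 52.4 in knockout (1.35, SE 0.18, limma adjusted p = 0.000222). Cdk2ap1 was thus the more abundant of the pair in every wild-type library and Cdk2ap2 in every knockout library.

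Cdk5r1, which encodes the neuronal Cdk5 activator p35, fell from 20.2 ± 1.75 to 2.52 ± 0.383 FPKM (mean ± SD, n = 3 in each group, limma adjusted p = 3.43e-06). The neuron markers summed to 5.90 to 21.1 FPKM in knockout against 739 to 781 in wild type, and whether they bear on Cdk5r1 was not tested. The centrosome gene Cdk5rap2 fell from 12.3 ± 0.93 to 2.26 ± 0.868 FPKM (limma adjusted p = 4.63e-05) and Cdkn2aipnl from 41.8 ± 2.14 to 12.6 ± 3.73 (limma adjusted p = 0.000157). Cdk3-ps was at 0.753, 1.02 and 0.599 FPKM in wild type and at 0.168, 0.117 and 0.324 in knockout.

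The members differed in how evenly they fell across knockout libraries, which the choice of members did not use. Cdk4, E2f1, Cdkn2d and Ccnd1 were nearly even, with the highest knockout value 1.2, 1.2, 1.21 and 1.3 times the lowest. Ccnb1, Ccna2, Ccnb2, Ccne1 and Cdk1 were the least even, at 12.6, 8.93, 7.39, 6.49 and 5.20 times. In wild type the same 9 genes had ratios of highest to lowest of 1.09 to 1.41. Of the 22 members lower in knockout, 15 were lowest in knockout replicate 2 (68.2%) and 17 were highest in knockout replicate 3 (77.3%). Among the 3279 genes of the table that were lower in knockout and above 0 in every library, those shares were 42.5% and 52.9%. Of the 6 higher members, 5 were highest in knockout replicate 2, beside 50.6% of the 3585 such higher genes. The median lower member kept 15.3% of its mean in wild type in knockout replicate 1, 12.4% in replicate 2 and 22.5% in replicate 3, beside 13.9%, 13.8% and 18.2% for all lower genes. Of the marker lists, the sums of fetal liver (8.40, 0.393 and 93.2 FPKM in knockout replicates 1 to 3) and labyrinth trophoblast (34.9, 25.7 and 71.2) were likewise lowest in replicate 2 and highest in replicate 3. The fetal liver genes did not move as a set. Alb was highest in replicate 1 (4.975, 0.0511 and 0.160), and Apoa1 (1.949, 0.248 and 72.8) and Ttr (1.481, 0.0943 and 20.2) were highest in replicate 3. Spongiotrophoblast and glycogen cell markers were also highest in replicate 3 but lowest in replicate 1 (3854, 4439 and 7096), and the part of none of these lists was tested.

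**Figure D4:**
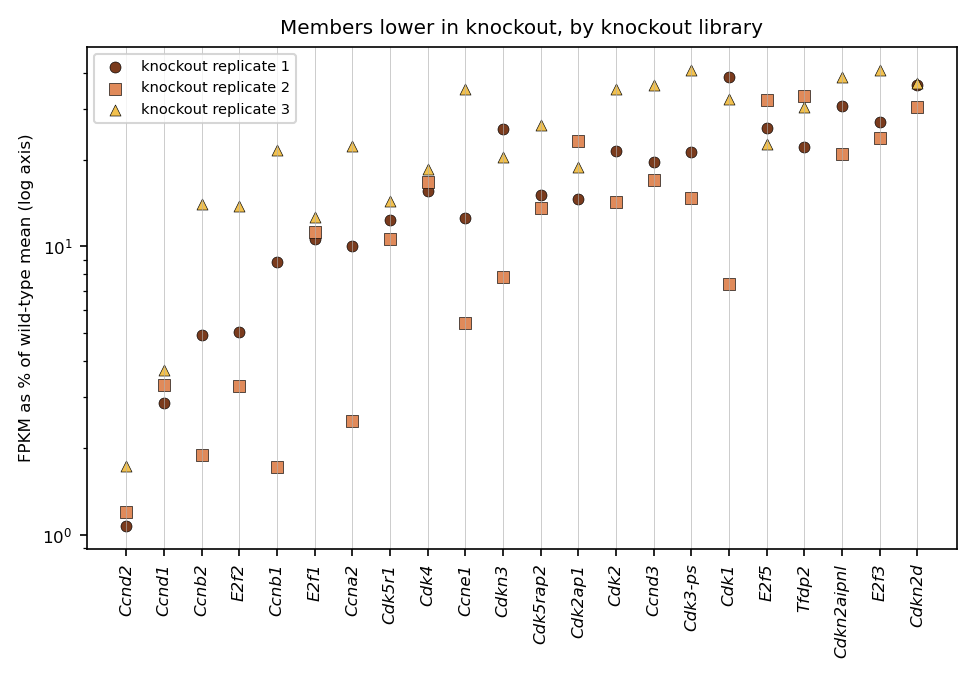
Each of the 22 members lower in knockout, ordered by its mean, with its FPKM in knockout replicates 1 to 3 as a percent of the wild-type mean on a log axis. Points lie close together for Ccnd1, E2f1, Cdk4 and Cdkn2d and far apart for Ccnb1, Ccna2, Ccnb2, Ccne1 and Cdk1.

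Other genes of the same machinery were taken from 5 lists. Of 66 listed genes 40 were in the table and 39 were tested, of which 33 fell and 6 rose, with a median log2 change of −2.23. Over all genes tested 49.2% were lower and 47.2% higher, with a median of 0.38, and since nearly every gene of the table passed in some direction, nothing is read from the number that passed. Among 12 CDK activators, adaptors and brakes 8 fell and 4 rose. The phosphatase gene Cdc25b, which activates Cdk1, went from 26.3 ± 2.79 to 1.08 ± 0.338 FPKM (a log2 change of −3.72, SE 0.18, limma adjusted p = 1.37e-06), and the mitotic kinase gene Plk1 from 46.9 ± 5.29 to 3.51 ± 2.52 (−3.56, SE 0.39, limma adjusted p = 7.39e-05). Cdc25b was at 0.999, 0.785 and 1.45 FPKM in knockout, so like Ccnd2 it met the level filter by way of wild type. So did Fbxo5, Foxm1 and Mki67, each under 1 FPKM in knockout replicate 2, and no support is drawn from the p-values of these genes. The 4 that rose were Gadd45a, Gadd45b and Gadd45g, genes of stress sensors that can inhibit Cdk1, and Wee1, the kinase that holds Cdk1 inactive. Gadd45b went from 7.18, 6.18 and 5.22 FPKM in wild type to 54.7, 117 and 75.4 in knockout (3.48, SE 0.28, limma adjusted p = 1.4e-05), and Gadd45g from 42.2 ± 3.85 to 207 ± 81.1 (2.21, SE 0.26, limma adjusted p = 0.000101). Wee1 rose from 15.3 ± 1.33 to 34.7 ± 3.81 FPKM (1.13, SE 0.14, limma adjusted p = 0.000151). All 3 Gadd45 genes, like Cdkn1a, were highest in knockout replicate 2. So were Wee1 and the ribonucleotide reductase genes Rrm1 and Rrm2, beside 50.6% of the 3585 higher genes above 0 in every library.

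All 10 tested genes of ubiquitin ligase and licensing control fell. Cdc20, which activates the anaphase-promoting complex in mitosis, went from 88.1 ± 7.29 to 6.15 ± 5.71 FPKM, the ubiquitin-conjugating enzyme gene Ube2c from 194 ± 11.6 to 13.8 ± 7.99, and Fbxo5, an inhibitor of the same complex that restrains re-replication, from 21.8 ± 2.75 to 2.71 ± 1.81 (limma adjusted p = 0.000205, 4.9e-05 and 0.000184). Of the DREAM, MuvB and Myb list all 4 tested genes fell. Foxm1, a driver of mitotic gene expression, went from 22.6 ± 1.63 to 1.3 ± 0.65 FPKM (limma adjusted p = 4.96e-06). Mycn, a growth regulator of embryonic progenitors, went from 21.7 ± 1.83 to 0.471 ± 0.289 FPKM, and like Cdkn2b it had to differ to be tested, since no knockout library reached the level filter. Both other cyclins in the table fell: Ccnf, a cyclin that works in a ubiquitin ligase, from 27.2 ± 3.7 to 8.6 ± 5.47 FPKM and Ccnj from 11.4 ± 1.86 to 1.55 ± 0.448 (limma adjusted p = 0.0104 and 1.65e-05).

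Of 11 proliferation genes and classical E2F targets 9 fell and 2 rose. The proliferation marker Mki67 was at 12.9, 30.8 and 37.4 FPKM in wild type and at 2.50, 0.99 and 6.16 in knockout (log2 change −2.80, SE 0.54, limma adjusted p = 0.00152). Top2a, a topoisomerase gene of dividing cells, fell by 3.82 on the log2 scale and Uhrf1, which maintains DNA methylation at replication, by 3.21 (limma adjusted p = 0.000112 and 0.000388). The exceptions were the ribonucleotide reductase genes Rrm2 (log2 change 2.50, limma adjusted p = 5.01e-06) and Rrm1 (0.53, limma adjusted p = 0.011). Without wild-type replicate 2 the Rrm1 call was lost (0.45, limma adjusted p = 0.0564), and quantile normalization turned its direction (−0.19).

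**Figure D5:**
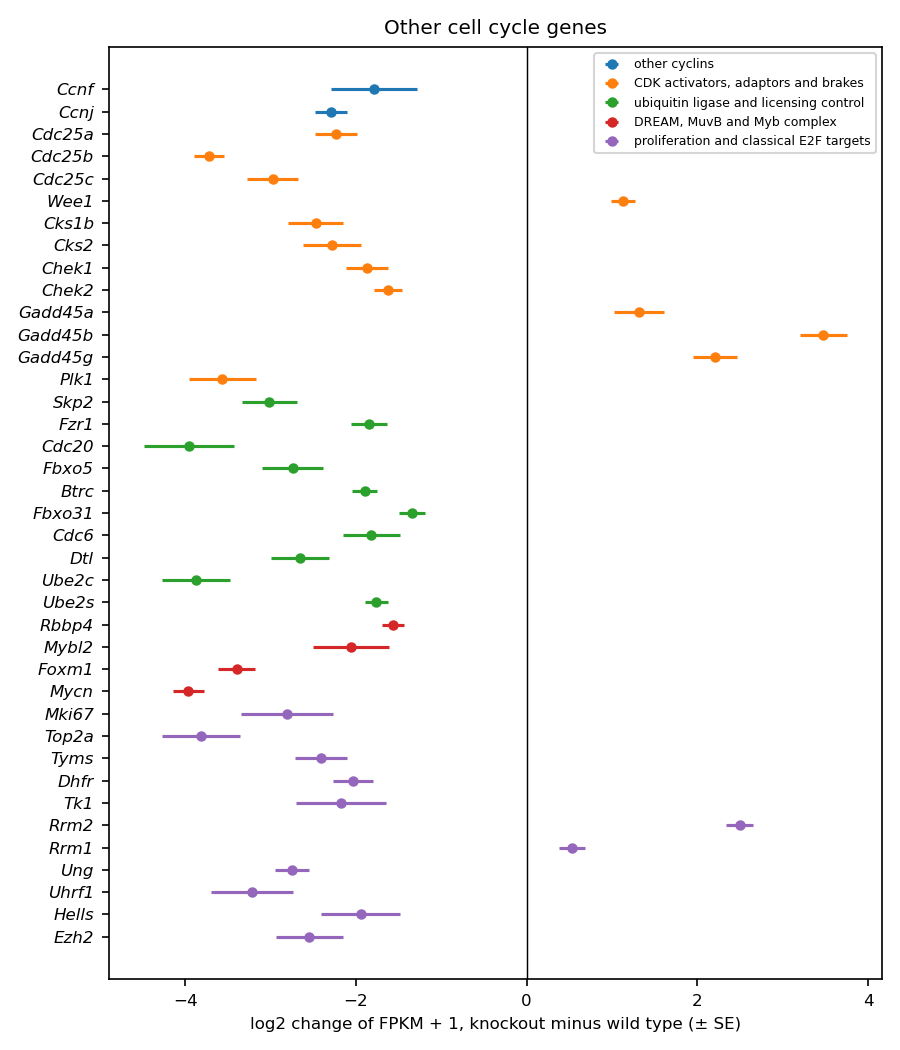
Log2 change of FPKM + 1, knockout minus wild type, with its standard error, for the 39 tested genes of the 5 other cell cycle lists, coloured by list. Points to the right of 0 are Wee1, Gadd45a, Gadd45b, Gadd45g, Rrm2 and Rrm1, and the other 33 are to the left.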

How the data were processed

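RNA-seq values of 6 libraries were used, 3 per genotype, grouped by the labels. The authors deposited a single value for each gene in each library, read here as FPKM that they had normalized to transcript length and mapped fragments. The header names no unit, and this reading was chosen because Cufflinks is the sole quantifier in the notes and the values are fractional with unequal column sums. TopHat2 2.0.8 and Cufflinks 2.1.1 are named with builds mm9 and mm10, per the submitters' processing notes. Read depth is unknown, and no interval for counting error can be had. FPKM divides by a library's mapped fragments, so a few very abundant transcripts lower all others.

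The 6487 of 7101 genes that reached 1 FPKM in 3 or more libraries were tested on log2(FPKM + 1) with limma 3.58.1 in R 4.3.3 (trend and robust, genotype only, two-sided, Benjamini-Hochberg over all 6487, threshold 0.05). Scripts were tested on simulated data. Members, lists and tests were chosen with earlier results of these data known. Every member was to be named, with the 2 largest changes in each direction of each other list and Ccnf, Mki67 and Fbxo5 whatever their values (Pcna, Gmnn and Cdt1, named likewise, were not analysed here). Of those lists, Gadd45a and Wee1, and all gene ratios within a library, were chosen after their values were seen, as were the promoters shown. Positions come from GENCODE M21 on GRCm38 and cover whole genes. Alternatives were other pseudocounts (0.1 and 5), filters and rescalings, limma without trend and robust, the replicate number as a block, and each library left out.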

Additional observations from a re-analysis of the deposited data

How the results depend on the processing

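All 27 tested members kept their direction and an adjusted p under 0.05 in limma under each of the 14 alternatives that could test them, 376 fits of a member in all. Of all 6256 genes past the threshold 89.2% did so too, in a table that looks picked for such differences, so this is not a sign of stability particular to the members. The largest adjusted p was 0.0213, for Cdk1 without wild-type replicate 1. The size of a change depended more on the setting, beyond what the printed SEs cover. Over the settings the log2 change of Ccnd2 ranged from −6.12 to −3.71, that of Cdk4 from −3.67 to −2.16 and that of E2f2 from −3.78 to −1.38. Cdkn2b ranged from 0.66 to 3.09, and Cdkn2d less widely, from −1.54 to −1.06. The counts of members, 6 higher and 21 lower, were 4 and 21 among genes with a mean of at least 5 FPKM and 6 and 22 with no filter on low values. Without each library in turn they stayed at 6 and 21. The counts of other cell cycle genes ranged from 5 to 6 higher and from 30 to 34 lower. Over all genes, 3191 were lower in the main analysis and 1801 with a mean of at least 5 FPKM, where fewer genes (4249) were tested. The count of all genes lower ranged from 3183 to 3195 without each library in turn, and that of genes higher from 2803 to 3099. Trimmed-mean rescaling moved the median log2 change of all genes tested from 0.38 to 0.65, and quantile normalization moved it to 0.01. Shares within families in knockout moved by more than their SD in 5 cases, all with quantile normalization: Ccnd3 went to 80.2%, Ccnd1 to 13.8%, Ccnd2 to 6.01%, E2f1 to 7.45% and E2f2 to 3.26%.

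The replicate number as a block left 6 members higher and 21 lower, 6 and 33 other cell cycle genes, and 3038 and 3192 of all genes. Deviations of same-numbered libraries from their group means correlated at −0.0551, 0.0814 and 0.11 across 6487 genes for numbers 1 to 3, so the numbers were not taken as pairs. Wild-type replicate 1 correlated best with knockout replicate 2 (0.0494), while wild-type replicates 2 and 3 correlated best with the knockout library of their own number. All of these correlations were weak.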
